A study of Mus musculus with 8 samples.

Results

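The genes described here encode the fibroblast growth factors (Fgf genes), their receptors (Fgfr1 to Fgfr4 and Fgfrl1), the Sprouty and Spred proteins, the dual-specificity phosphatases (Dusp genes) and the Etv transcription factors. The rule takes all genes with a name of these families that the expression array measures, and uses no measured value. There were 64 such genes among the 36406 gene names on the array, with 92 of its 55681 probes, and each gene was read from its brightest probe over all arrays. RNA came from E14Tg2A.4 cells, a line of mouse embryonic stem (ES) cells, and was hybridised to Agilent 1-colour arrays in 4 biological replicates per condition. One condition was untreated, and in the other 1 µM all-trans retinoic acid (RA) had been added for 3 days in medium without leukemia inhibitory factor. Neither condition carried a genetic change, both came from 1 line, and RA and any change of medium that came with it cannot be told apart. The comparison asks which of these genes differ between self-renewing cells and cells that have begun to differentiate.

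FGFs are secreted proteins that bind receptor tyrosine kinases at the cell surface, and much of their signal runs through RAS, RAF and MEK to the ERK kinases. The pathway limits itself: ERK activity induces Sprouty and Spred proteins, which act on RAS and RAF, and Dusp phosphatases, several of which remove the activating phosphates from MAP kinases. Etv1, Etv4 and Etv5 are ETS-family transcription factors that are widely read as targets of FGF signalling. In mouse ES cells Fgf4 is the main FGF the cells make themselves, and its signal through ERK is known for moving them towards differentiation.

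All levels below are log2 intensities relative to the 75th percentile of the same array, so that 0 is that percentile, and all differences are RA-treated minus untreated on the same log2 scale. A gene was called changed where the adjusted p (limma, Benjamini-Hochberg over all 55681 probes) was below 0.05 and the fold was above 1.5. Of the 64 genes, 19 were called higher after RA, 18 were called lower and 27 were not called. Over all probes of the array, 34.6% were called, 12.9% higher and 21.6% lower, so the genes higher after RA made up 29.7% of these families and the genes lower 28.1%. The families also held many measurable genes, since 48 of the 64 were well above background on all 8 arrays. Of those 48 genes 33.3% were called higher and 29.2% lower, beside 17.8% and 27.7% of the 27515 probes that were well above background on all 8 arrays. The median difference was 0.03 over the 64 genes and -0.28 over all probes. That median over all probes moved to -0.003 under quantile normalization, so it depends on the scaling, while each of the 37 called genes kept its sign under every scaling tried. The arrays lay on 2 slides, each with 2 arrays of each condition. With the slide as a block all 37 calls were kept, and within slide 1 and within slide 2, with 4 arrays each, 27 and 23 of them were still called and all 37 kept their sign.

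In 36 of the 64 genes the 4 untreated and 4 RA-treated values did not overlap, 19 with RA-treated higher and 17 with RA-treated lower, beside 37.7% of all probes (13.9% higher and 23.8% lower). Among the 48 genes well above background on all 8 arrays, the differences ran from -6.08 for Fgf4 to 3.78 for Dusp8. 3 genes, Fgf2, Fgf16 and Dusp21, were well above background on no array, as were 29.9% of all probes.

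**Figure D1:**
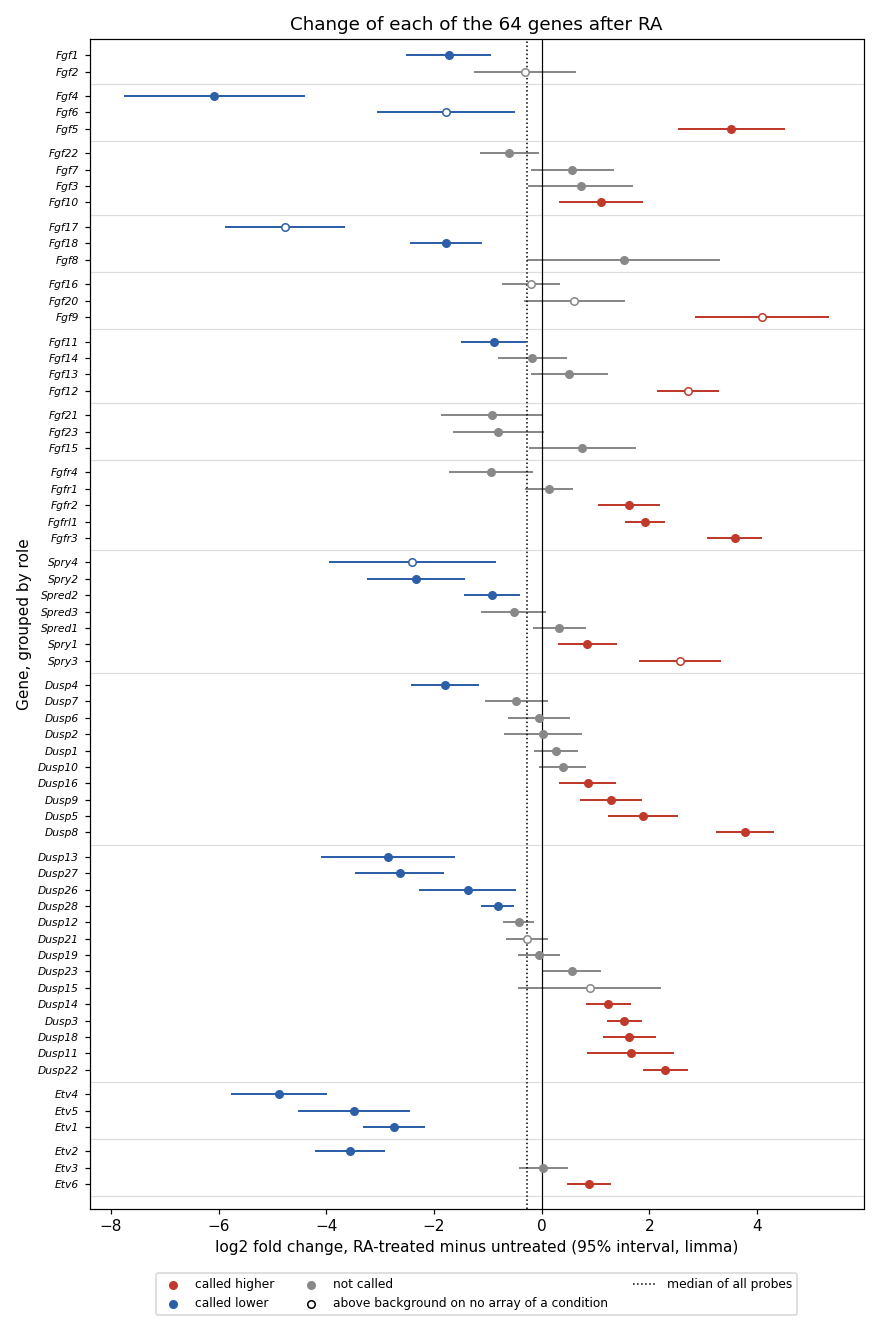
The log2 fold change of each of the 64 genes (RA-treated minus untreated, points, with 95% intervals from limma as lines), grouped by role from the FGF1 subfamily at the top to Etv2, Etv3 and Etv6 at the bottom. Red marks the 19 genes called higher, blue the 18 called lower and grey the 27 not called; open points had a condition with no array well above background, and the dotted line is the median over all probes, -0.28.

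Markers of other cell types moved in the same comparison. All 8 ES cell markers fell, and their summed level, in units of the 75th percentile, went from between 449 and 624 in untreated cells to between 45.6 and 120 after RA. All 5 genes known to respond to RA rose, as did all 6 primitive endoderm markers, with sums between 0.864 and 1.95 before and between 8.14 and 11.8 after. Of 6 fibroblast markers 5 rose, with sums between 1.05 and 1.83 in untreated cells and between 30.4 and 48.7 after RA, while the surface marker Thy1 differed by -0.08 and was not called. Of 6 neural markers Nes rose, Tubb3 fell and the others were not called (sums between 6.1 and 9.68 before and between 10.4 and 11.9 after), and of 6 mesoderm markers Mesp1 and Mixl1 were called lower and none higher, with Mixl1 well above background on no array and Mesp1 on no RA-treated array (between 2.25 and 2.75 before and between 1.96 and 3.55 after). The part these cell types play in the results below was not tested, and in RNA from whole cultures a smaller share of cells of a type and less RNA per cell cannot be told apart. RA-treated replicate 2 kept the highest level among the RA-treated arrays for 7 of the 8 ES cell markers, with Pou5f1 at 2.05 there and between -1.16 and 0.39 in the other three, and also for the 3 mesoderm markers that were well above background on all RA-treated arrays.

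Promoter sequence was at hand for 48 of the 64 genes, as 60 windows from 250 bases before to 50 bases after the transcription start in the RefSeq annotation of GRCm38.p6. Both strands were searched for exact letters of 5 motifs, and in no window did matches of different motifs overlap. CCGGAAGT, a form of the site that ETS-family factors bind, stood in 1 of the 60 windows (1.67%), beside 3.89% of all 32851 windows of the annotation. TGACGTCA, the cAMP response element (CRE), stood in 2 windows (3.33% beside 1.79%), and the AP-1 site TGACTCA stood in 2 (3.33% beside 5.2%). GGGCGG, the core of the Sp1 site, was in 38 windows (63.3% beside 35.7%). The direct repeat of the RA receptor site with a spacing of 5 (DR5) was in none of them and in 3 of all windows (0.00913%). These matches describe letters in a window, and not bound sites.

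The 250 bases before the start are given for the gene with the largest fall, for the pair whose windows held the CRE, and for the gene whose window held the ETS letters. Each reads 5′ to 3′ on the gene's own strand, and capitals mark the matches named after it. In Fgf4 (chr7:144861136-144861385, plus strand) the capitals are GGGCGG, 214 and 188 bases before the start. In Dusp8 (chr7:142095285-142095534, minus strand) they are the CRE at 107 and at 63 bases before it. In Dusp1 (chr17:26508473-26508722, minus strand) the CRE is at 143 bases, and in Fgfrl1 (chr5:108693979-108694228, plus strand) the ETS letters are at 48 bases.
Fgf4: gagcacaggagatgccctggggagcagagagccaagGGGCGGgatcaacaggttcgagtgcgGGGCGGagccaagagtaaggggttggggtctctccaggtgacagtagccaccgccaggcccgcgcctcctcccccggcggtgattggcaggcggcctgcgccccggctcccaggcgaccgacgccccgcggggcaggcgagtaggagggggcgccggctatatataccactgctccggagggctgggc
Dusp8: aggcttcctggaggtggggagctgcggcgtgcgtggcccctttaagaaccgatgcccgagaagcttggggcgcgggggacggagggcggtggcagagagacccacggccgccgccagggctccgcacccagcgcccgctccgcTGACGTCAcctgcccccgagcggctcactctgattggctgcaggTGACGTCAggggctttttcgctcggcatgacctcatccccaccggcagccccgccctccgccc
Dusp1: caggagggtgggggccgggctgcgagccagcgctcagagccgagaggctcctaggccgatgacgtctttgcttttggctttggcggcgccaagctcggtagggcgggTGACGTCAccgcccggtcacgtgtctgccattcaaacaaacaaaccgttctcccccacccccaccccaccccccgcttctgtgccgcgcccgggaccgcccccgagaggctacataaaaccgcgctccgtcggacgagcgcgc
Fgfrl1: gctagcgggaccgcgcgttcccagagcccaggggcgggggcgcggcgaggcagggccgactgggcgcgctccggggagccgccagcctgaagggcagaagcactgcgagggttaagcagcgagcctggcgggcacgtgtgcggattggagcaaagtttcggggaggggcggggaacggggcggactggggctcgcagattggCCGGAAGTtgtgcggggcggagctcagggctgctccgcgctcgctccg
Both genes with the CRE are MAP kinase phosphatases, and their transcripts behaved differently, as given below: Dusp8 rose by 3.78 and Dusp1 was not called.

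Of the 22 Fgf genes 4 were called higher (18.2%) and 6 lower (27.3%), where 12.9% and 21.6% of all probes were. Fgf4 was the gene with the largest change. Its level was 5.20, 5.53, 4.25 and 5.18 in untreated replicates 1 to 4, and -0.90, 1.17, -1.68 and -2.75 in RA-treated replicates 1 to 4. The conditions were far apart, and the spread was wider after RA (SD 1.66, n = 4, beside 0.55), with replicate 2 the highest. The difference was -6.08 (SE 0.73, 95% interval -7.75 to -4.42), a 67.7-fold lower level with an adjusted p of 0.000239 (limma), and it was -6.82 without RA-treated replicate 2. Fgf5, another member of the FGF4 subfamily and a marker of the primed state that follows the ES cell state in the embryo, went the other way. It lay between -4.78 and -2.92 in untreated cells and between -1.10 and 0.09 after RA, a rise of 3.52 (SE 0.43, adjusted p = 0.000254). Fgf6, a gene known from muscle, was called lower (-1.77, adjusted p = 0.0331) from levels that were well above background on 1 of 8 arrays, so that no fold can be given, and the call was lost in 11 of the 18 other settings.

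Fgf4 stands in a group with 2 other FGF genes. On mouse chromosome 7 the probes of Fgf3, Fgf4 and Fgf15 start at positions 152026667, 152051089 and 152086371 of the mm9 build, 59.7 kb from first to last. Fgf3, known from inner ear development, differed by 0.72 (95% interval -0.23 to 1.68, adjusted p = 0.201) and was detected throughout. Fgf15, an endocrine FGF that in the adult is made in the gut and controls bile acid synthesis, differed by 0.75 (95% interval -0.23 to 1.73, adjusted p = 0.199). So of these 3 neighbours Fgf4 alone was called, and the intervals of the others lie above the whole interval of Fgf4.

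The FGF8 subfamily holds Fgf8, Fgf17 and Fgf18, secreted factors of early patterning. Fgf17 was at -2.65, -2.44, -2.82 and -2.12 in untreated cells and at -7.74, -5.66, -7.87 and -7.83 after RA, where no array was well above background. In the main scaling, and by the bound defined below, Fgf17 was at least 10.5-fold lower after RA (measured difference -4.77, adjusted p = 8.84e-05). The difference was -1.81 with normexp and -1.62 in the authors' values, both called and both smaller folds than that bound. Fgf18 read 2.39, 0.95, 1.75 and 1.57 in untreated cells and between -0.27 and 0.18 after RA, a fall of 1.78 on the log2 scale (SE 0.29, adjusted p = 0.00119). Its other probe gave -1.81. Fgf8 itself was spread too widely among the RA-treated arrays to be called. It was between -3.74 and -2.94 in untreated cells, and after RA it was -1.30, 0.57, -3.33 and -3.15. Replicates 1 and 2 were above every untreated array and replicates 3 and 4 were within the untreated range, so that the mean difference of 1.53 had a 95% interval of -0.25 to 3.30 (adjusted p = 0.161) and was 0.73 without RA-treated replicate 2.

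Fgf9, which signals between epithelium and mesenchyme in several organs, rose above background on all 4 RA-treated arrays and not on a single untreated one. Its RA-treated levels were -3.33, -3.62, -1.70 and -1.25, at least 8.19-fold higher than in untreated cells (measured difference 4.10, adjusted p = 0.000394). The difference was 1.64 with normexp and 1.80 in the authors' values, both called and both smaller folds than that bound. Fgf12, one of the FGF homologous factors that stay in the cell and bind sodium channels, had the same pattern of detection, with RA-treated levels between -4.86 and -3.92, at least 2.55-fold higher (measured difference 2.72, adjusted p = 4.93e-05). With the background corrected by normexp, whose offset compresses dim values, and the 75th percentile kept, its difference was 0.50, below the fold limit (adjusted p = 0.00589). With normexp and quantile normalization it was 0.72 and in the authors' values 0.70, both called. Of the other homologous factors, Fgf11 was called lower (-0.89, adjusted p = 0.0227, lost in 11 of the 18 other settings), and Fgf13 and Fgf14 were not called.

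Fgf1, a ligand that binds all of the FGF receptors, fell. It was between -0.95 and -0.39 in untreated cells and at -2.19, -1.44, -2.46 and -3.18 after RA, a difference of -1.73 (SE 0.34, adjusted p = 0.0036). At its second, dimmer probe, where no RA-treated array was well above background, the level was at least 1.39-fold lower. Fgf2, the FGF added to primed stem cell cultures, was well above background on no array, so no level can be given. Fgf10, which drives branching of the lung and limb outgrowth through Fgfr2, was called higher (1.10, SE 0.33, adjusted p = 0.0294). That call was lost when any of the RA-treated arrays or untreated replicate 4 was left out, with differences between 0.76 and 1.33 over all arrays left out in turn. Fgf7, Fgf22 and Fgf23 were not called, with differences between -0.81 and 0.56, and neither were Fgf20 and Fgf21, which were well above background on 2 and 4 of the 8 arrays.

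**Figure D2:**
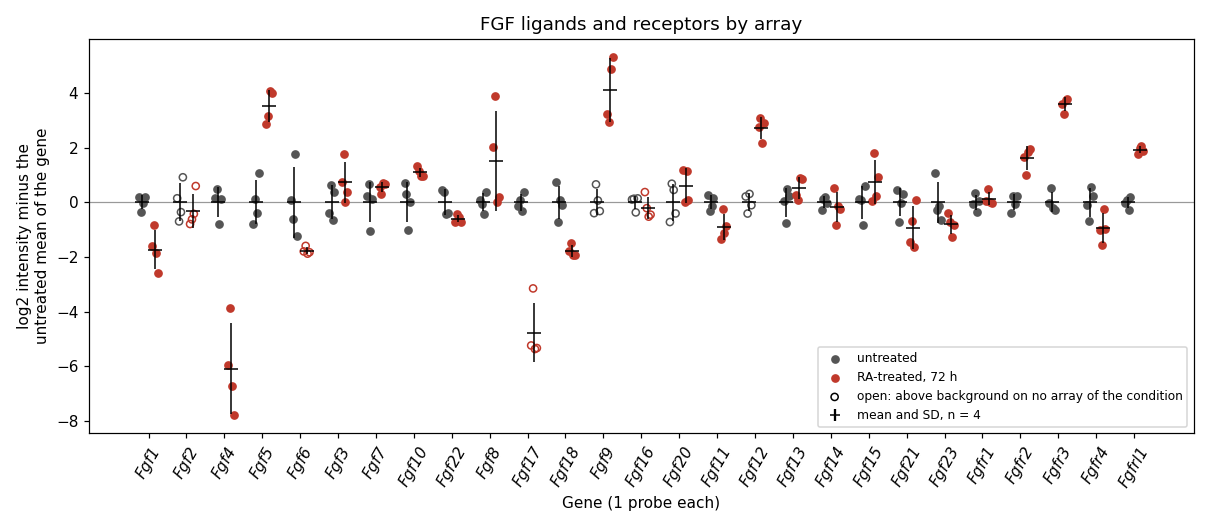
Values on each array for the 22 Fgf genes and the 5 receptors, as log2 intensity minus the mean of the gene's 4 untreated arrays (grey untreated, red RA-treated, black mean and SD, n = 4); open points mark a condition with no array well above background. Fgf4 changes by -6.08 with a wide spread after RA, Fgf8 splits among the RA-treated arrays, and Fgfr3 rises by 3.59 with little spread.

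Of the 5 receptors 3 were called higher and none lower, beside 12.9% and 21.6% of all probes. All 5 were well above background on all 8 arrays, and of all probes detected in that way 17.8% were called higher and 27.7% lower. Fgfr3, which carries FGF signals in brain and skeleton, was at -2.60, -2.05, -2.79 and -2.86 in untreated cells and at 1.04, 0.66, 1.15 and 1.20 after RA. The difference was 3.59 (SE 0.22, 95% interval 3.09 to 4.08, adjusted p = 7.7e-06). A second probe of Fgfr3 also rose, by 0.93 (SE 0.16, adjusted p = 0.00149), and the mean over both probes rose by 2.26. Fgfr2, whose isoforms differ between epithelium and mesenchyme, lay between -1.94 and -1.34 before and at 0.10, -0.55, 0.29 and 0.39 after RA. It rose by 1.62 (SE 0.24, adjusted p = 0.000809), and by 2.04 at its second probe. Fgfrl1, a receptor-like protein that binds FGFs but lacks the kinase, was between 1.89 and 2.35 before and between 3.92 and 4.22 after, a rise of 1.92 (SE 0.15, adjusted p = 2.73e-05).

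The other receptors were not called. Fgfr1, which transmits most FGF signals in mouse ES cells, was at 3.60, 3.98, 3.31 and 3.71 in untreated cells and at 3.71, 4.12, 3.66 and 3.63 after RA. The conditions overlapped, and the difference of 0.13 had a 95% interval of -0.30 to 0.56 (adjusted p = 0.586). The gene's other probes gave -0.12 and 0.63, neither called. Fgfr4 was at -0.11, -0.67, 0.57 and 0.24 before and at -1.01, -1.55, -0.24 and -0.96 after RA. Every RA-treated replicate was below the untreated replicate of the same number. The difference of -0.94 missed the threshold (95% interval -1.71 to -0.19, adjusted p = 0.0534), and with the replicate number as a block it was called lower (adjusted p = 0.00651). Fgfr4 was also called lower with normexp and the 75th percentile (-0.87, adjusted p = 0.0168) and with dim probes left out. The same held without untreated replicate 2, without RA-treated replicate 3 and for the mean over its probes. In the other 12 of 18 settings it was not called. Among these were normexp with quantile normalization (-0.86, adjusted p = 0.0577), the authors' values (-0.85, adjusted p = 0.0582) and the fit without RA-treated replicate 2 (-0.74, adjusted p = 0.123).

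All 3 Etv factors linked to FGF signalling, Etv1, Etv4 and Etv5, fell, and none of their untreated and RA-treated values overlapped. Over all probes 21.6% were called lower and 23.8% were lower after RA with no overlap. Etv4 was at 5.30, 4.34, 4.41 and 4.74 in untreated cells and at -0.06, 0.83, -0.52 and -0.97 after RA. That was a difference of -4.88 (SE 0.39), or 29.4-fold (adjusted p = 2.59e-05), and its second probe gave -5.15. Etv5 read 7.08, 6.81, 6.41 and 6.93 in untreated cells and 3.44, 4.66, 2.86 and 2.30 after RA. It fell by 3.49 on the log2 scale (SE 0.45, adjusted p = 0.000348), 11.3-fold, and remained well above background on every RA-treated array. Etv1 read between 2.98 and 3.86 before and between 0.28 and 1.13 after RA, a difference of -2.74 (SE 0.24, adjusted p = 4.7e-05). At its second, dimmer probe no RA-treated array was well above background, and the level was at least 7.61-fold lower.

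The other Etv genes did not move as one. Etv2, a master factor of the blood and vessel lineage, was at 0.53, 0.32, 1.29 and 0.46 in untreated cells and at -3.19, -2.31, -2.91 and -3.21 after RA. Its difference was -3.56 (SE 0.28, adjusted p = 2.4e-05) and its second probe gave -2.75. Etv6, a repressor of the same ETS family, rose by 0.87 (SE 0.17, adjusted p = 0.00368). Etv3 differed by 0.03 with a 95% interval of -0.41 to 0.47 and was not called, and its sign changed with the background correction.

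Of the 7 Sprouty and Spred genes 2 rose (28.6%) and 3 fell (42.9%), against 12.9% and 21.6% over all probes. Spry2 was at 1.40, 1.08, 0.99 and 1.38 in untreated cells and at -1.21, 0.12, -1.60 and -1.82 after RA. The untreated arrays lay close together, and RA-treated replicate 2 stood above the other RA-treated arrays. Spry2 fell by 2.34 on the log2 scale (SE 0.39, adjusted p = 0.00147), and by 2.75 without that array. Spry1 rose, from between 0.61 and 1.16 to 1.61, 2.26, 1.34 and 1.76 (difference 0.84, SE 0.23, adjusted p = 0.0189). So Spry1 and Spry2, the 2 Sprouty genes that were well above background on all 8 arrays, moved in opposite directions.

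Spry4 and Spry3 were dim. Spry4 was well above background on 2 untreated arrays and on no RA-treated array, with untreated levels of -3.90, -6.86, -4.22 and -5.75 and RA-treated levels of -6.36, -7.87, -8.03 and -8.09. It was at least 1.74-fold lower after RA (measured difference -2.41, adjusted p = 0.0211), the conditions overlapped, the difference was -0.82 with normexp and -0.59 in the authors' values, and the call was lost under quantile normalization or when untreated replicate 1 or 3 or RA-treated replicate 3 or 4 was left out. Spry3 stood well above background on 3 RA-treated arrays alone, at least 1.6-fold higher (measured difference 2.57, adjusted p = 0.000343), and its difference of 0.43 with normexp and the 75th percentile was below the fold limit (adjusted p = 0.0381). With normexp and quantile normalization it was 0.66 and in the authors' values 0.64, both called. Among the Spred genes, whose proteins hold back RAF activation, Spred2 fell by 0.92 on the log2 scale (SE 0.22, adjusted p = 0.0105). Spred1 differed by 0.33 (95% interval -0.15 to 0.80) and Spred3 by -0.52 (-1.11 to 0.07), neither called.

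**Figure D3:**
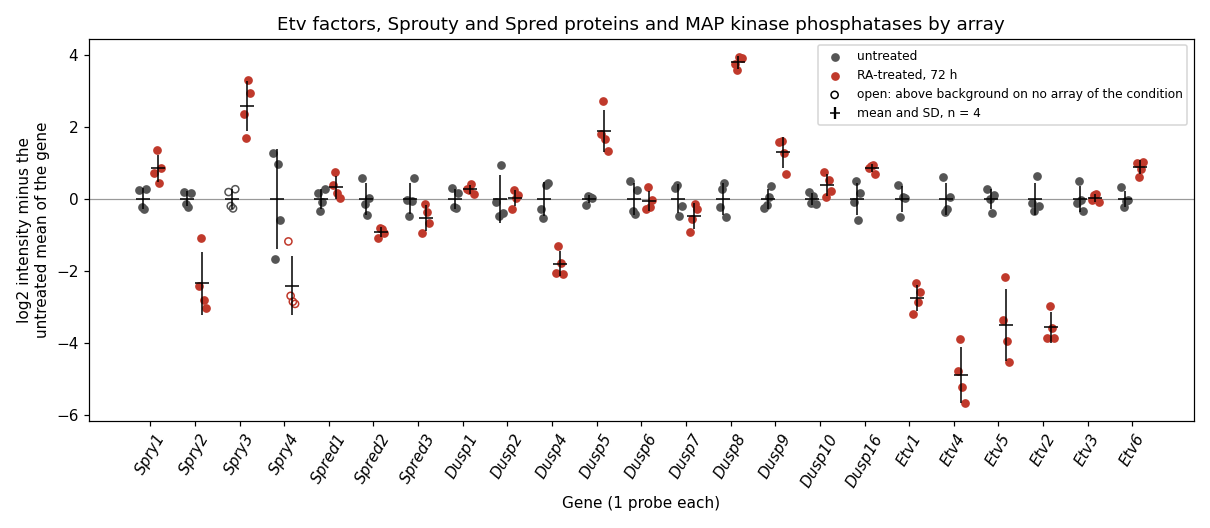
Values on each array for the 7 Sprouty and Spred genes, the 10 MAP kinase phosphatases and the 6 Etv genes, as log2 intensity minus the mean of the gene's 4 untreated arrays (grey untreated, red RA-treated, black mean and SD, n = 4); open points mark a condition with no array well above background. Etv1, Etv4, Etv5, Etv2, Spry2 and Dusp4 lie below 0 after RA, Dusp8 rises by 3.78, and the untreated and RA-treated points of Dusp6 overlap.

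The 10 MAP kinase phosphatases among the Dusp genes were all well above background on all 8 arrays, and 4 rose (40%), 1 fell (10%) and 5 were not called. Over all probes detected on 8 arrays the shares were 17.8% and 27.7%. Dusp6, which acts on ERK in the cytoplasm and is widely used as a readout of FGF signalling, was at 4.64, 3.81, 3.72 and 4.39 in untreated cells and at 3.87, 4.47, 3.92 and 4.11 after RA. The values of the conditions were interleaved. The difference was -0.05 (SE 0.25, adjusted p = 0.879), with a 95% interval of -0.61 to 0.51, and it turned to 0.12 under quantile normalization. Dusp4, an inducible nuclear phosphatase of ERK and other MAP kinases, fell. It was at 1.10, 0.85, 1.75 and 1.81 before and at -0.66, 0.07, -0.39 and -0.69 after RA (difference -1.80, SE 0.27, adjusted p = 0.000865).

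The phosphatases that rose were Dusp8, Dusp5, Dusp9 and Dusp16. Dusp8, which acts mainly on the stress-activated kinases JNK and p38, was at -3.55, -3.04, -2.87 and -3.82 in untreated cells and at 0.40, 0.24, 0.61 and 0.59 after RA. Its rise of 3.78 (SE 0.23, adjusted p = 7.5e-06), 13.8-fold, came with no overlap, and its second probe rose by 3.19. Dusp5, a nuclear phosphatase of ERK, was between -4.40 and -4.16 before and at -2.43, -1.51, -2.58 and -2.90 after RA, a rise of 1.88 (SE 0.28, adjusted p = 0.000723) that was 1.06 with normexp. Dusp9, an X-linked cytoplasmic phosphatase of ERK, rose from between 2.04 and 2.64 to 3.88, 3.91, 3.56 and 2.97 (difference 1.29, SE 0.24, adjusted p = 0.00287). Dusp16, which acts on JNK and p38, rose by 0.85 (SE 0.22, adjusted p = 0.0159).

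Not called were Dusp1, Dusp2, Dusp7, Dusp10 and Dusp6. Dusp1, an immediate-early gene induced by growth factors and stress, was between 0.54 and 1.08 in untreated cells and between 0.93 and 1.20 after RA. It differed by 0.26 (95% interval -0.12 to 0.65, adjusted p = 0.226), and the differences of Dusp2, Dusp7 and Dusp10 were 0.02, -0.47 and 0.39.

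Of the 14 other Dusp genes, which encode small or atypical phosphatases with varied substrates, 5 rose (35.7%) and 4 fell (28.6%), against 12.9% and 21.6% over all probes. Dusp22, a small phosphatase known as a regulator of JNK signalling, was between -1.77 and -1.43 in untreated cells and at 1.05, 0.74, 0.44 and 0.54 after RA, a rise of 2.30 (SE 0.18, adjusted p = 2.4e-05), with 2.61 at its second probe. Dusp3, a phosphatase of ERK and JNK known as VHR, rose by 1.53 (SE 0.14, adjusted p = 4.46e-05) from between 0.93 and 1.31 to between 2.58 and 2.70. Dusp11, which acts on RNA ends, rose by 1.65, Dusp18 by 1.63 and Dusp14 by 1.24 (adjusted p = 0.00514, 0.000314 and 0.000646). For Dusp18 the difference was 0.85 with normexp and 1.03 in the authors' values, both called.

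The falls in this group were of several sizes. Dusp27, a gene known from muscle, was at 0.97, 1.82, 1.28 and 1.51 in untreated cells and at -1.16, -0.50, -1.08 and -2.25 after RA (difference -2.64, SE 0.36, adjusted p = 0.000455). Dusp13 differed by -2.86 (SE 0.54, adjusted p = 0.00287), from levels between -4.05 and -1.56, and only 2 RA-treated arrays were well above background. Its difference was -1.35 with normexp. Dusp28 fell by 0.82 on the log2 scale with very little spread (SE 0.12, adjusted p = 0.000906): its untreated levels lay between -0.07 and 0.07 and its RA-treated levels between -0.90 and -0.72. Dusp26 differed by -1.38 (adjusted p = 0.0213), with conditions that overlapped and a call lost when untreated replicate 1 or 4 or RA-treated replicate 3 or 4 was left out. Dusp12 missed the fold threshold, although the arrays of each condition lay close together: 4.35, 4.36, 4.35 and 4.37 before and 3.90, 3.95, 3.92 and 3.95 after RA (difference -0.43, adjusted p = 0.0189). Dusp19 and Dusp23 were not called either, with differences of -0.04 and 0.55. No untreated array was well above background for Dusp15 or Dusp21, and no difference is given for them. A second probe of Dusp15 passed the thresholds (adjusted p = 0.0334) with no array of either condition well above background.

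Second probes gave another readout on the same RNA. The choice of the brightest probe used their mean level over all arrays, and not their difference between the conditions. Of the 64 genes 25 had more than 1 probe, with 28 other probes in all, dim ones included. The difference had the sign of the brightest probe in 27 of the 28, the exception being a probe of Fgfr1, a gene not called at any of its probes. For genes called at the brightest probe, 14 of 14 other probes were called the same way. Probe positions overlap within Fgfr2 and Fgf18 and, among genes not called, Fgf20 and Dusp7. These pairs read partly the same sequence. The agreement over all genes of the array with more than 1 probe was not computed.

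The components between the receptors and the nucleus, and further targets of the pathway, were taken from a list of 44 genes. Of these 14 were called higher, 6 lower and 24 not called, with a median difference of 0.21. The shares were 31.8% higher and 13.6% lower, beside 12.9% and 21.6% of all probes. Of the 44 genes 40 were well above background on all 8 arrays, and of all probes detected in that way 17.8% were called higher and 27.7% lower. Flrt3 and Flrt2, membrane proteins that interact with FGF receptors, rose. Flrt3 lay between 0.05 and 0.20 before and at 4.35, 3.67, 4.25 and 4.33 after RA (difference 4.04, SE 0.18, adjusted p = 2.21e-06), and Flrt2 rose by 2.75 (SE 0.24, adjusted p = 4.73e-05), or 1.81 with normexp. Of the core kinases Map2k1, Araf and Braf were not called, with differences between -0.15 and 0.29, and Mapk3 rose by 0.73 (adjusted p = 0.0118).

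Adaptors and kinases at other steps went in both directions. The adaptor Gab1 fell by 0.82 on the log2 scale (adjusted p = 0.0094), and Grb2 and Shc1 were not called. The adaptor Frs2, which links the receptors to RAS, rose by 1.06 (SE 0.14, adjusted p = 0.000377) and the exchange factor Sos2 by 1.37 (SE 0.14, adjusted p = 8.05e-05). Rps6ka3, a kinase that ERK activates, rose by 2.06 (SE 0.21, adjusted p = 9.24e-05), while Rps6ka1 of the same family fell by 0.98 on the log2 scale (adjusted p = 0.00102). Klb, the co-receptor for endocrine FGFs, rose by 1.77 (adjusted p = 0.00608).

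The 6 falls of the list were Gab1, Rps6ka1, Egr1, Fosl1, Ier2 and Fos. Egr1, a transcription factor that growth factors induce within minutes, was at 4.39, 3.05, 3.30 and 3.63 in untreated cells and at -1.16, -0.95, 1.03 and 1.28 after RA (difference -3.55, SE 0.60, adjusted p = 0.00154). Fosl1 was well above background on all untreated arrays and on no RA-treated array, at least 12.1-fold lower (measured difference -3.77, adjusted p = 0.000507). Its difference was -1.77 with normexp and -1.58 in the authors' values, still called but smaller folds than that bound. Ier2 fell by 1.61 and Fos by 0.99 on the log2 scale (adjusted p = 0.000757 and 0.00831). Ier3 rose by 0.77 (adjusted p = 0.00974), and Myc differed by 0.05 (95% interval -0.42 to 0.53) and was not called. The feedback inhibitor Il17rd, also known as Sef, was at 2.46, 3.99, 1.91 and 1.89 after RA and between 2.81 and 3.43 before. RA-treated replicate 2 was above every untreated array and the other three were below all of them, so that the gene was not called with that array (-0.61, adjusted p = 0.27) and was called lower without it.

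The RA-treated arrays were not alike for the genes that fell. Of the 18 genes called lower, 14 were well above background on all 4 RA-treated arrays, and among these RA-treated replicate 2 had the highest RA-treated value in 13 (92.9%) and replicate 4 the lowest in 10 (71.4%). Over the 7608 probes of the whole array that were called lower and detected in the same way, replicate 2 was highest in 45.8% and replicate 4 lowest in 32.8%. Replicate 2 also held the highest levels of 7 of the 8 ES cell markers, as given above. For the 18 of the 19 genes called higher that were detected on all RA-treated arrays the order was more mixed: replicate 2 was lowest in 8 (44.4%), beside 39.6% of all such probes called higher. Leaving replicate 2 out kept 35 of the 37 calls and lost those of Fgf6 and Fgf10.

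**Figure D4:**
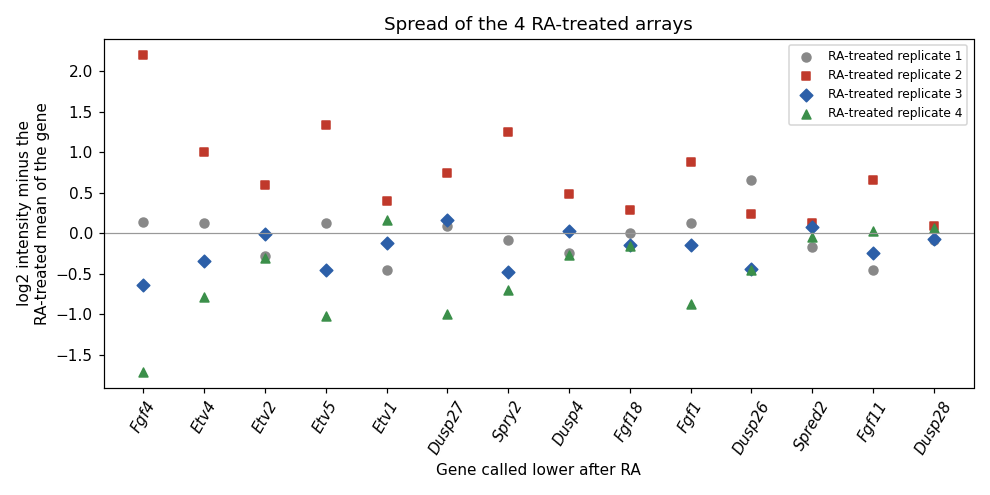
The 4 RA-treated arrays for each of the 14 genes called lower that were well above background on all of these arrays, as log2 intensity minus the gene's mean over the RA-treated arrays, ordered from the largest fall (Fgf4) on the left. Replicate 2 (red squares) is the highest point in 13 of the 14 genes, and replicate 4 (green triangles) is the lowest in 10.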

How the data were processed

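RNA of E14Tg2A.4 cells (4 untreated, 4 RA-treated) had been labelled with Cy3 and hybridised to 8×60K SurePrint G3 mouse arrays. The deposited array files were written by Agilent Feature Extraction (10.7.3.1) and hold, per spot, a background-corrected intensity that was not normalized between arrays, the raw mean and background intensity, and other columns of 0 or 1 that flag detection, saturation and outliers. A second deposited table gives log2 values, with column medians all at 6.76. How that table was normalized is not given in the sources used here.

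Here log2 intensity was taken minus the array's 75th percentile, control and outlier spots were left out, and spots of a probe were averaged. On each array 59305 spots gave 55681 probes, and between 56.7% and 62.7% of spots were well above background. The number of arrays limits the precision. limma 3.58.1 (R 4.3.3; lmFit and eBayes, two-sided) compared the conditions with Benjamini-Hochberg adjustment over all probes, and the threshold (adjusted p below 0.05, fold above 1.5) follows the study's design. A probe well above background on no array of a condition has only a bound there. For "at least" folds, each dim array was given the probe's own value or, if higher, the lowest value of any probe well above background. Such a bound holds only for the main scaling and this choice of value. In the authors' values the folds of Fgf17, Fgf9, Fgf12, Fosl1, Spry3 and Spry4 were below their bounds. On simulated data 143 of 200 probes changed by 2 on the log2 scale were recovered, with 3 false calls among 55681. The simulated noise was independent between arrays and only those 200 probes changed, whereas 34.6% of probes were called in the data. These counts therefore do not give the error rates of the comparison itself.

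Replicate numbers come from the labels. Deviations from the condition means correlated between arrays of the same number, with r between 0.104 and 0.189 over 27493 probes. Between different numbers r ran from -0.269 to 0.142. Untreated replicate 1 with RA-treated replicate 4 (0.142) and untreated replicate 4 with RA-treated replicate 3 (0.13) exceeded the lowest same-number value. The arrays of each of these pairs shared a slide. The numbers may pair the samples, but slide and number were not separated. The comparison itself was fitted without pairs, and the replicate block was an alternative.

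The 64 genes, the pathway list and the markers were chosen with earlier results of these data known. Genes named with values are all receptors, Sprouty, Spred and Etv genes, a fixed set of Fgf and Dusp genes (Fgf1, Fgf2, Fgf4, Fgf5, Fgf8, Fgf15, Dusp1, Dusp4, Dusp5, Dusp6 and Dusp9), the 15 other members and 5 pathway genes with the largest changes among those called, without overlap and detected, while other genes were added after their values were seen. Probe positions are those of the array's annotation (mm9), which names no exon or UTR, and promoter windows are from RefSeq (GRCm38.p6), with no window used here for 16 genes. Alternatives were another scaling, another background correction (normexp), the authors' table, a filter on dim probes, slide and replicate blocks, single slides, each array left out, other thresholds and the mean over a gene's probes.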

Additional observations from a re-analysis of the deposited data

Results flagged for a closer look

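Among 98 sets of 4 arrays (49 genes named by the rule, 2 conditions), 4 had 1 array that stood apart from the other three by Dixon's test at the 95% level, where chance gives about 4.9. Fgfr1 in RA-treated replicate 2 was at 4.12, beside 3.63 to 3.71 in the other RA-treated arrays. Fgf17 in the same array was at -5.65 beside -7.87 to -7.74, all of them not well above background. Flrt3 in that array was at 3.67 beside 4.25 to 4.35. Spry4 in RA-treated replicate 1 was at -6.36 beside -8.09 to -7.87, also not well above background. Without RA-treated replicate 2 the differences were 0.02 for Fgfr1, -5.31 for Fgf17 and 4.20 for Flrt3, with the same calls.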

How the results depend on the processing

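Of the 37 called genes, 18 were called the same way under all 18 alternatives (10 higher, among them Fgfr3, Fgfrl1, Fgf5, Fgf9 and Dusp8, and 8 lower, among them Fgf4, Fgf17, Etv1, Etv2, Etv4 and Etv5), none was called the other way, and all kept their sign. The genes called higher were between 16 and 20, and those called lower between 15 and 19, under the alternatives that kept all arrays, and with 1 array left out between 18 and 19 and between 14 and 19. On slide 1 alone (4 arrays) 13 genes were called higher and 14 lower, and on slide 2 alone 14 and 9. The pathway list gave between 11 and 15 higher and between 6 and 8 lower with 1 array left out, 5 higher on slide 1 alone, 6 higher and 3 lower on slide 2 alone, and 3 lower at a fold above 2. The single-slide fits hold fewer samples. With the replicate number as a block 19 genes were called higher and 18 lower, as without it, with Fgfr4 gained (adjusted p = 0.00651) and Fgf11 lost, and the pathway list gave 13 higher and 6 lower. Quantile normalization turned the split over all probes from 12.9% higher and 21.6% lower to 14.6% and 15.6%.

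Values changed sign only for genes not called. Dusp6 was 0.12 under quantile normalization, 0.14 with normexp and quantile normalization, 0.13 in the authors' values, 0.10 on slide 2 alone, and between -0.19 and 0.12 with 1 array left out. Etv3 was -0.01 with normexp, and between -0.089 and 0.19 with 1 array left out. Fgf2, well above background on no array, was 0.04 with normexp and quantile normalization, 0.04 in the authors' values and 0.006 on slide 1 alone. normexp, whose offset of 50 compresses dim values, moved Fgf17 to -1.81 and Fgf9 to 1.64, and Dusp18 to 0.85, all still called. Genes well above background on few arrays (Fgf2, Fgf6, Fgf16, Fgf20, Dusp15, Dusp21, Spry3 and Spry4) are limited by their signal, and for these a difference was not measurable or has only a bound, which for Fgf6, Fgf20 and Dusp15 is not above 1.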
